A study of Homo sapiens with 12 samples.

Results

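The genes described here are those whose transcripts were lower after a single 24 h pulse of interferon in AC16 cells. AC16 is a proliferating human line described as having ventricular cardiomyocyte features. A gene was taken when it had a symbol, a vehicle mean of at least 3 CPM (counts per 1000000 of the library's total), an acute mean at most 0.6 of the vehicle mean, and all 3 acute values below all 3 vehicle values. Of 60649 identifiers in the deposited count table, 165 genes met these thresholds, 9 were set aside by name, and 156 remained. All 156 passed the filter on low counts and were among the 18119 genes tested. The working name of the set was genes halved by the pulse, and the values go against it for most members: 50 of the 156 had an acute mean at or below 0.5 of vehicle. Just inside the limit of 0.6 stood SORT1 at 0.599, PGAP1 at 0.598 and NCAL1 at 0.597 of vehicle, and just outside stood SNTB1 at 0.6003 and RHOQP2 and SLIT3 at 0.6006. Just inside the limit of 3 CPM stood RALGPS1 at 3.01, MGARP at 3.03 and IQCH-AS1 at 3.09 CPM. Just outside it, TVP23C-CDRT4 had a vehicle mean of 2.81 CPM, SOWAHD of 2.77 CPM and ACOT1 of 2.76 CPM.

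Interferon alpha-2a, a recombinant type I interferon, was used at 1000 U/mL, and each of 4 groups had 3 libraries. Vehicle cells received phosphate-buffered saline and were labelled 24 h. Acute cells were collected after a 24 h pulse. For recovery, the pulse was followed by 5 interferon-free days, and the label gives day 6. For repeat, the pulse was followed by 4 interferon-free days and a second pulse of 24 h. Its label gives day 7, although those intervals add up to 6 days. All groups were labelled wild type and carried 1 batch label, and the submitters called the replicates independent. The labels conflict on the culture medium, which is RPMI in one place and DMEM/F-12 in another. They also conflict on the vehicle: the protocol describes saline for intervals matching each regimen, while all vehicle libraries were labelled 24 h. If the 24 h label holds, interferon history and time in culture cannot be told apart where recovery or repeat is set against vehicle or acute. The members were chosen by their acute and vehicle values, so for members every contrast with either group is given below as a description with no test. Repeat and recovery libraries were not used in the choice, and their contrast was tested. Their labels differ in day, 7 against 6, and no group was labelled as given saline in place of the second pulse. In that contrast interferon in the second pulse cannot be told apart from its handling or, if the day labels hold, from the day. Below, a fall in the second pulse means a lower level in repeat than in recovery. In RNA from whole cultures, fewer cells expressing a gene and less RNA per cell cannot be told apart.

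Type I interferons bind a receptor common to most cells, whose kinases JAK1 and TYK2 phosphorylate STAT proteins. With IRF9 these form a complex that binds interferon-stimulated response elements and raises antiviral genes. Genes that fall under interferon are less uniform; among those described in other cells are genes of sterol and fatty acid synthesis, which the SREBP transcription factors drive. All 41 measured genes of a list of classical interferon-stimulated genes rose in both pulses (edgeR adjusted p under 0.05), and none was a member.

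Library totals ran from 39.9 to 62.3 M estimated counts (1 M is 1000000). Of 14 cardiomyocyte markers, 13 were under 1 CPM in every library, and MYL7 was at 0 in all of them. At the RNA level these markers therefore do not show the cardiomyocyte features by which the line is described. All 10 fibroblast markers were measured. Their summed level was 7643 to 7914 CPM in vehicle, 5965 to 6165 in acute, 6600 to 6679 in recovery and 5232 to 5481 in repeat, and LUM and DCN among them are members. Most of the sum was COL1A1, at 4707 to 4966 CPM in vehicle and 3593 to 3787 in acute. The fall was not uniform: THY1 was at 221.3 to 224.6 CPM in vehicle and 212.6 to 220.7 in acute. POSTN overlapped, at 61.11 to 68.08 and 62.89 to 63.82 CPM. Of the macrophage markers CD68 was at most 94.9 CPM in vehicle and at least 222 CPM in acute, while AIF1 was at most 0.0353 CPM and PTPRC, CD14 and CSF1R at most 1.55 CPM in any library. Of 5 endothelial markers, 4 were under 1 CPM. Smooth muscle markers summed to 27.0 to 40.0 CPM and neuronal markers to 199.9 to 223 CPM over all libraries. The part of the fibroblast and CD68 values in the results was not tested.

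Across the 156 members the level relative to each gene's vehicle mean formed 4 blocks. The median member stood at 1.04, 0.988 and 0.967 of its vehicle mean in vehicle replicates 1, 2 and 3, and at 0.548, 0.534 and 0.532 in the acute replicates. In the recovery replicates the medians were 0.877, 0.838 and 0.858, and in the repeat replicates they were 0.503, 0.499 and 0.503. The recovery blocks lay between vehicle and acute, and the repeat blocks at or below the acute ones. Vehicle replicate 1 was the highest vehicle library for 99 of the members.

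**Figure D1:**
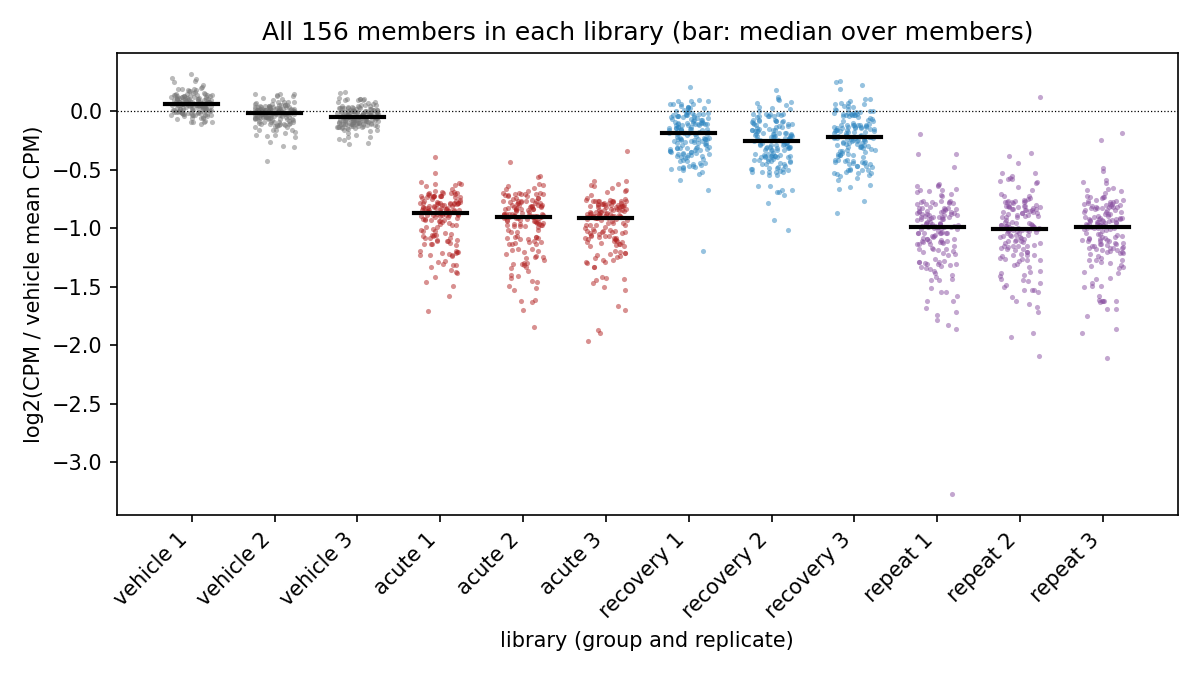
Each point is 1 of the 156 members in 1 library, as log2 of its CPM over its vehicle mean CPM (vertical axis), and the black bar is the median member. Acute and repeat libraries lie lowest and recovery libraries lie between, while AK4P3, at 0 in acute replicate 3 and repeat replicate 2, has no point there.

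The second pulse gave the contrast independent of the choice. Compared with recovery, 150 of the 156 members were lower in repeat and 0 were higher (edgeR quasi-likelihood test, p adjusted by Benjamini-Hochberg over the 18119 genes in the fit, under 0.05). Among those genes 41.6% were called, 20.5% lower and 21.1% higher. No member was higher at an unadjusted p under 0.05 either, and none was higher by DESeq2, by limma-voom or on TPM. The median log2 fold change of the members was -0.78, against -0.00034 for all genes. In 151 members every repeat value was below every recovery value, an arrangement found in 26.4% of all genes. When the limits that defined the set were applied to repeat and recovery in place of acute and vehicle, 84 of the 142 members with a recovery mean of at least 3 CPM met them, and so did 0.956% of the 11710 genes at that level. For comparison, the first pulse took 1.41% of genes past the limits, by which the members were defined. Of the 112 genes past the limits in the second pulse, 28 were not members, and 9 of those were the genes set aside by name.

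MTURN encodes maturin, a small conserved protein first described as a regulator of neural progenitor differentiation (ENSG00000180354.16, chr7:30134986-30162762, plus strand, GRCh38 with GENCODE release 44, as for all gene positions here). In CPM it had the lowest acute level relative to vehicle of all members. In TPM the lowest such ratio among the members was 0.335, and MTURN was above it. Exons of MTURN overlap those of a long noncoding RNA on the same strand. MTURN stood at 17.7, 16.8 and 16.6 CPM in the vehicle libraries, 5.72, 4.75 and 4.68 in acute, 15.3, 16.6 and 17.3 in recovery and 5.54, 5.45 and 5.5 in repeat, with replicates in the order 1, 2 and 3 here and below. All acute and repeat values lay below all vehicle and recovery values. The acute mean was 0.296 and the recovery mean 0.961 of vehicle, so that 94.4% of the difference was regained. In the second pulse MTURN fell by 1.56 on the log2 scale (SE 0.068, edgeR adjusted p = 5.11e-17), to 0.335 of recovery.

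The 10 members with the lowest acute level relative to vehicle were MTURN and 9 others. SLC39A10, a zinc importer (chr2:195575977-195737702, plus strand), stood at 75.2, 69.5 and 63.6 CPM in the vehicle libraries, 24.8, 25.9 and 25.1 in acute, 64, 56 and 61.9 in recovery and 27, 24.8 and 24.7 in repeat. FAXDC2, a fatty acid hydroxylase domain protein (chr5:154818492-154859252, minus strand), stood at 6.77, 5.16 and 6.67 CPM in the vehicle libraries, 2.55, 2.4 and 1.96 in acute, 5.2, 5.74 and 5.55 in recovery and 2.01, 1.89 and 1.85 in repeat. In both genes all acute and repeat values lay below all vehicle and recovery values, and recovery overlapped vehicle. LMOD1, a leiomodin that nucleates actin filaments in smooth muscle (chr1:201896456-201946548, minus strand), stood at 7.13, 6.76 and 6.52 CPM in the vehicle libraries, 2.74, 2.48 and 2.4 in acute, 5.9, 4.98 and 5.82 in recovery and 2.51, 2.14 and 2.21 in repeat. FADS2, a desaturase of polyunsaturated fatty acid synthesis (chr11:61792980-61867354, plus strand), stood at 453, 392 and 384 CPM in the vehicle libraries, 158, 156 and 151 in acute, 309, 280.3 and 297 in recovery and 144, 142 and 133 in repeat. For LMOD1 and FADS2 the recovery values lay between the other groups, below all vehicle values and above all acute values. COL4A4, a collagen chain of basement membranes (chr2:227002714-227164453, minus strand), stood at 5.68, 4.57 and 4.71 CPM in the vehicle libraries, 1.91, 2.03 and 1.87 in acute, 3.6, 3.09 and 3.59 in recovery and 1.37, 1.17 and 1.37 in repeat. AKR1C3, a reductase of steroids and prostaglandins (chr10:5035354-5107686, plus strand), stood at 16, 9.77 and 13.6 CPM in the vehicle libraries, 5.99, 4.27 and 5.23 in acute, 12.5, 9.69 and 12.1 in recovery and 6.09, 5.88 and 6.74 in repeat. COL4A4 was lower in repeat than in acute in every library, whereas AKR1C3 had overlapping repeat and acute values and the widest vehicle spread of the 10 relative to its mean. AKR1C3 has close paralogs, between which short reads may be divided.

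Among the 10, 3 were noncoding. ZNF710-AS1, antisense to the zinc finger gene ZNF710 (chr15:90074512-90082207, minus strand), stood at 3.19, 3.27 and 3.08 CPM in the vehicle libraries, 1.36, 1.13 and 0.853 in acute, 2.68, 2.85 and 3.8 in recovery and 0.896, 1.38 and 1.13 in repeat. OLMALINC, a long noncoding RNA (chr10:100373099-100454043, plus strand), stood at 10.2, 9.14 and 7.61 CPM in the vehicle libraries, 3.91, 3.66 and 2.77 in acute, 7.25, 6.65 and 6.65 in recovery and 2.69, 2.36 and 2.42 in repeat. ECEL1P2, a pseudogene of an endothelin-converting enzyme homologue (chr2:232386701-232387457, minus strand), stood at 11.5, 9.87 and 10 CPM in the vehicle libraries, 4.16, 3.63 and 3.62 in acute, 7.29, 6.56 and 7.19 in recovery and 3.18, 3.63 and 3.24 in repeat. Recovery overlapped vehicle for ZNF710-AS1 and lay wholly below it for OLMALINC and ECEL1P2. Exons of ECEL1P2 overlap those of a long noncoding RNA entry of the same name on the same strand. All 10 fell in the second pulse: the log2 fold change ran from -1.56 in MTURN to -0.86 in AKR1C3 (SE 0.20, edgeR adjusted p = 0.00706). COL4A4 fell by 1.38 (edgeR adjusted p = 1.22e-09), and that call was lost in TPM and with an offset for the transcript length implied by counts and TPM, at -0.18 on log2(TPM + 1) (limma adjusted p = 0.259) and -0.93 with the length offset (edgeR adjusted p = 0.167). Changes on log2(TPM + 1) are smaller for low genes by construction.

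**Figure D2:**
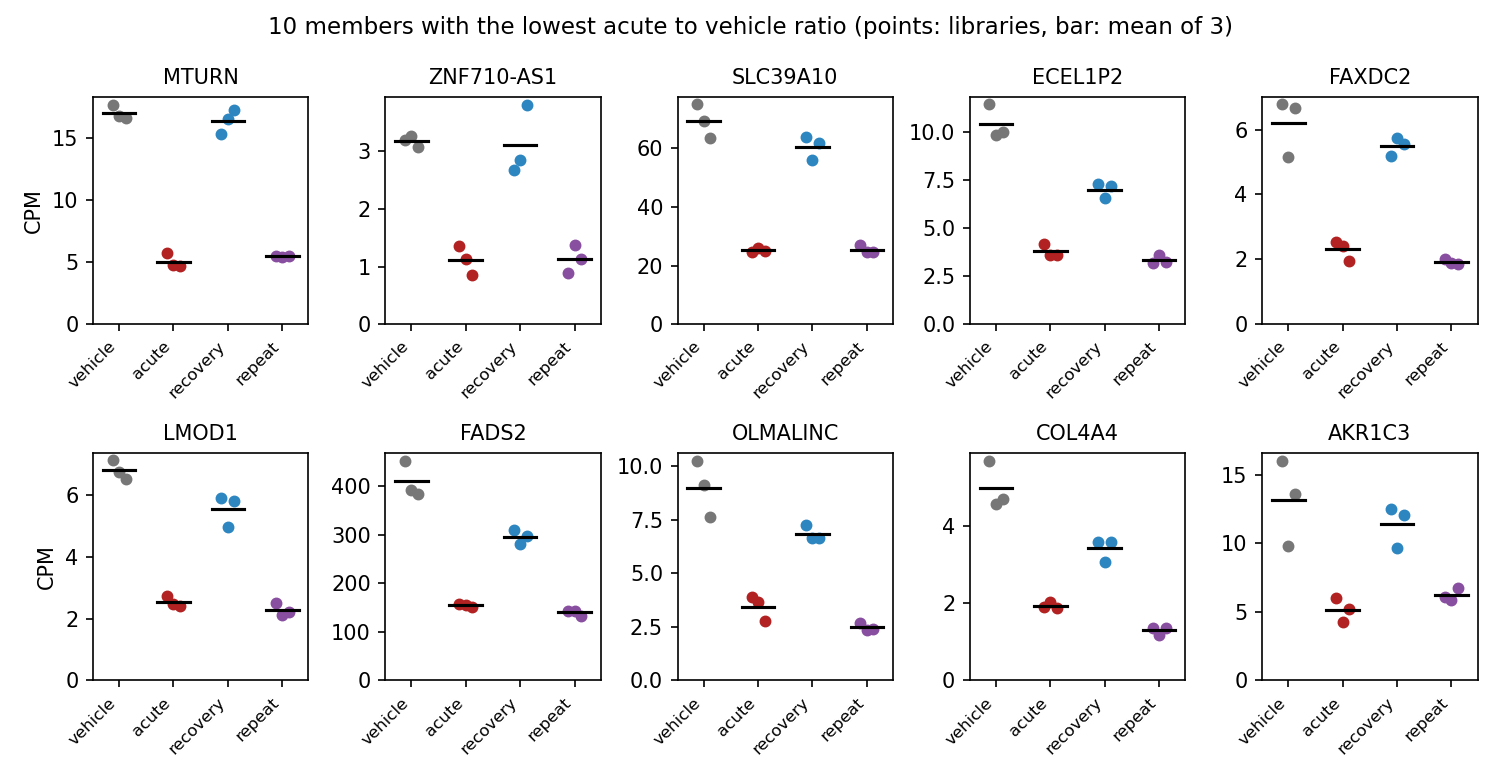
CPM in each of the 12 libraries (points) and the mean of each group (bars) for the 10 members with the lowest acute level relative to vehicle, each on its own axis from 0. In every panel the acute and repeat points lie below the vehicle and recovery points, and ECEL1P2, LMOD1, FADS2, OLMALINC and COL4A4 have all recovery points below all vehicle points.

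Promoters of the members were read from RefSeq (GRCh38.p14) as 250 bases before to 50 after each start: 106 of the 156 members matched, with 168 promoters. Of 11 motifs searched on both strands, the forkhead motif TGTTTAC is shown because its share, as a ratio to the share over tested genes, was the furthest from 1, a choice made after the values were seen, and because MTURN carries it. FOXO factors, which growth factor signalling keeps out of the nucleus, bind such sites. It occurred in 9 member genes (8.49%), against 3.45% of 11825 tested genes with a promoter, and in 6.55% of member promoters against 3.42% of 35116 promoters. The stretches below run 5′ to 3′ on the gene's strand, with TGTTTAC or its reverse complement GTAAACA in capitals.
MTURN, chr7:30134990-30135016, plus strand: cgcaccgcatGTAAACAgtcccagccg
FOXO4, chrX:71095864-71095890, plus strand: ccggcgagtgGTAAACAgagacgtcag
YPEL3, chr16:30096197-30096223, minus strand: tgggctcggtGTAAACAagtccaggcg
MXI1, chr10:110210070-110210096, plus strand: gccacctcgtTGTTTACcccgtgccgg
GFRA1, chr10:116274806-116274832, minus strand: atgtttgcttTGTTTACtcaacaacca
SORT1, chr1:109393266-109393292, minus strand: aactacttctGTAAACAtaacttccca
The other 3 genes with the motif were DENND2A, TRIM2 and MAP3K8. These matches describe letters in a window and are not shown to be bound.

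The remaining motifs were searched in the same windows, and the shares are given by promoter (members against all promoters) and by gene (members against tested genes). The interferon-stimulated response element core (GAAA, any 2 bases, GAAA) occurred in 2.98% against 3.57% of promoters and in 4.72% against 4.04% of genes. The AP-1 motif TGANTCA occurred in 6.55% against 7.71% of promoters and 9.43% against 7.25% of genes, and TATAAA in 7.74% against 11.5% of promoters and 11.3% against 8.82% of genes. For these 3 motifs the members' share was the lower one by promoter and the higher one by gene. The gamma-activated site TTCNNNGAA occurred in 7.74% against 7.66% of promoters and 10.4% against 8.56% of genes. CCAAT occurred in 41.1% against 34.6% of promoters and 55.7% against 42.8% of genes. The GC box GGGCGG occurred in 61.3% against 45% of promoters and 76.4% against 75.4% of genes, and the TEAD motif GGAATG in 16.1% against 14.0% and 21.7% against 15.1%. For the other 3 motifs the members' share was the lower one both ways. The E-box CACGTG occurred in 4.76% against 7.26% of promoters and 7.55% against 12.2% of genes, and the CRE TGACGTCA in 1.19% against 1.85% and 1.89% against 3.77%. The sterol response motif TCACNCCAC occurred in 0.595% against 1.13% of promoters and 0.943% against 1.44% of genes, with ALDOC as the 1 member gene.

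Across the members, log2 acute to vehicle and log2 repeat to recovery had a Pearson r of 0.728 (n = 156 genes, which are not independent, and which share libraries within each ratio but none between the ratios). The median ratio was 0.544 in the first pulse (lowest 0.296, highest 0.599) and 0.578 in the second (0.327 to 1.28). The first range is cut at 0.6 by the choice of members.

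**Figure D3:**
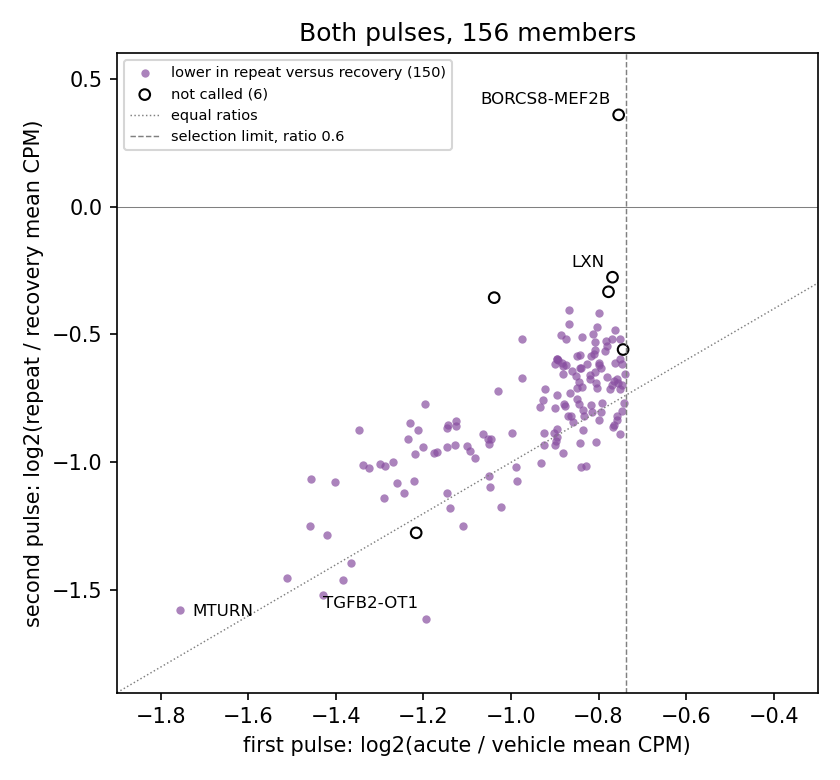
Each point is a member, with log2 of acute over vehicle mean CPM on the horizontal axis and log2 of repeat over recovery mean CPM on the vertical axis. The 150 filled points were lower in repeat than in recovery, the 6 open circles were not called, and BORCS8-MEF2B alone lies above 0.

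The second-pulse fold change was most negative for TGFB2-OT1, MTURN, FAXDC2, OLMALINC and ZNF710-AS1. TGFB2-OT1, an RNA that lies within the gene of the growth factor TGFB2 on the same strand, stood at 4.68, 5.4 and 4.88 CPM in the vehicle libraries, 3.16, 2.11 and 1.28 in acute, 3.58, 2.47 and 3.15 in recovery and 0.517, 1.34 and 1.16 in repeat. It fell by 1.59 (SE 0.38, edgeR adjusted p = 0.00829), the widest error of the 5, and its reads cannot be told from those of TGFB2 where the exons overlap.

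In the second pulse 6 members were not called. BORCS8-MEF2B, a readthrough transcript, stood at 3.17, 3.7 and 3.26 CPM in the vehicle libraries, 1.96, 2.18 and 1.86 in acute, 1.48, 1.77 and 1.85 in recovery and 1.61, 3.67 and 1.25 in repeat. Its log2 fold change was 0.39 (SE 0.35, edgeR adjusted p = 0.44), and repeat replicate 2 alone lay above the recovery values by more than their range. Without that library the value was -0.24. LXN, latexin, an inhibitor of carboxypeptidases, stood at 3.76, 3.31 and 3.84 CPM in the vehicle libraries, 2.37, 2.0 and 2.03 in acute, 2.86, 3.13 and 3.86 in recovery and 2.62, 2.44 and 3.08 in repeat, and its repeat and recovery values overlapped. Its log2 fold change was -0.27 (edgeR adjusted p = 0.103). ENO1P4, a retrocopy of the enolase ENO1, stood at 4.22, 3.79 and 4.35 CPM in the vehicle libraries, 2.56, 1.33 and 2.12 in acute, 4.21, 2.65 and 4.1 in recovery and 3.2, 2.86 and 2.5 in repeat. SMG1P5, a pseudogene of the kinase SMG1, stood at 7.45, 5.58 and 5.64 CPM in the vehicle libraries, 4.32, 3.39 and 3.17 in acute, 6.49, 5.59 and 5.12 in recovery and 5.43, 4.59 and 3.63 in repeat. Both overlapped between recovery and repeat (edgeR adjusted p = 0.217 and 0.177). AK4P3, a retrocopy of the adenylate kinase AK4, stood at 5.06, 5.66 and 4.6 CPM in the vehicle libraries, 3.9, 2.68 and 0 in acute, 4.02, 4.07 and 4.36 in recovery and 1.48, 0 and 3.66 in repeat, being at 0 in 1 acute and 1 repeat library (edgeR adjusted p = 0.366). NCAL1, a noncoding RNA, stood at 10, 9.74 and 9.94 CPM in the vehicle libraries, 5.74, 4.19 and 7.81 in acute, 10.6, 10.3 and 8.34 in recovery and 5.53, 7.72 and 6.61 in repeat, with no overlap between recovery and repeat (edgeR adjusted p = 0.0612). Reads of pseudogenes and readthrough transcripts may be divided with their parent genes, so these values are uncertain. S100A4, a calcium-binding protein, had the smallest fold change of the 5 at that end that was still called. S100A4 stood at 4.23, 3.79 and 4.12 CPM in the vehicle libraries, 1.89, 2.15 and 2.61 in acute, 3.92, 4.13 and 4.01 in recovery and 3.15, 3.11 and 2.85 in repeat and fell by 0.39 (SE 0.11, edgeR adjusted p = 0.00738).

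The roles below were assigned after the members were known, from general knowledge of each gene. Over all roles 150 of the 156 members fell in the second pulse, against 20.5% of all tested genes. A role in which every member fell therefore does not stand apart from the other members. These counts are from the main fit, and on log2(TPM + 1) 117 members were called lower. Lipid and sterol metabolism had 16 members, and all 16 fell in the second pulse. Sterol synthesis runs from mevalonate through lanosterol to cholesterol, and SREBP factors raise its genes when sterols are low. MVK, mevalonate kinase, stood at 62.7, 59.2 and 54.4 CPM in the vehicle libraries, 34.7, 32.9 and 33.3 in acute, 55.1, 50.8 and 53.5 in recovery and 32.5, 33.3 and 33.2 in repeat. MVD, a decarboxylase later in the route, stood at 109, 102 and 99 CPM in the vehicle libraries, 62.8, 58.6 and 59.2 in acute, 91, 84.5 and 87.3 in recovery and 60.9, 60.8 and 58.6 in repeat. LSS, lanosterol synthase, stood at 265, 246 and 250.5 CPM in the vehicle libraries, 145, 136 and 141 in acute, 215, 202 and 210.5 in recovery and 134, 131 and 131 in repeat. In all 3 the acute and repeat values lay below all vehicle and recovery values, and recovery overlapped vehicle for MVK only. INSIG1, which holds SREBP in the endoplasmic reticulum, stood at 287, 253 and 244 CPM in the vehicle libraries, 113, 113 and 112 in acute, 209.9, 186 and 195 in recovery and 109, 109 and 104 in repeat. MYLIP, a ubiquitin ligase for lipoprotein receptors, stood at 12.7, 11.9 and 11.7 CPM in the vehicle libraries, 6.55, 6.96 and 6.8 in acute, 11.8, 9.41 and 9.91 in recovery and 7.83, 6.92 and 7.12 in repeat. INSIG1 regained 56.8% of its fall and MYLIP 67.4%, and recovery overlapped vehicle for MYLIP but not for INSIG1. LSS fell in the second pulse by 0.65 (SE 0.029, edgeR adjusted p = 2.84e-15) and MYLIP by 0.49 (SE 0.076, edgeR adjusted p = 5.05e-06).

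The fatty acid branch included its regulator. SREBF1, the SREBP gene of fatty acid synthesis, stood at 155, 148 and 140.1 CPM in the vehicle libraries, 63, 61.2 and 62.9 in acute, 113, 101 and 105 in recovery and 49.6, 49.1 and 48 in repeat. FASN, fatty acid synthase, stood at 1114, 1009.5 and 987 CPM in the vehicle libraries, 572, 561 and 564 in acute, 818, 735 and 765 in recovery and 522, 492 and 496 in repeat. FADS1, the desaturase that acts after FADS2 and lies beside it on the opposite strand, stood at 293, 266 and 258 CPM in the vehicle libraries, 149, 147 and 146 in acute, 230.4, 209 and 221 in recovery and 145, 140.2 and 146 in repeat. For SREBF1, FASN and FADS1, recovery lay wholly between vehicle and acute. PNPLA3, a lipid droplet hydrolase, stood at 26.3, 24.7 and 20.8 CPM in the vehicle libraries, 13.9, 12.7 and 12.9 in acute, 21, 19.9 and 20.1 in recovery and 11.6, 11.9 and 11.2 in repeat, and its recovery values overlapped vehicle in 1 library of each. SREBF1 fell in the second pulse by 1.10 (SE 0.042, edgeR adjusted p = 1.65e-12) to 0.46 of recovery, and FASN to 0.651. Repeat lay wholly below acute for SREBF1, FASN, FADS2, INSIG1, LSS and PNPLA3.

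The other genes of these pathways were counted apart from the members. They are the genes that the choice left out, so their first-pulse counts depend on the acute and vehicle values used in it and are given here and below as a description, and the second-pulse counts alone are independent of the choice. Of 24 measured genes of a list of cholesterol synthesis and uptake, 5 are members. Of the other 19, 17 fell and 0 rose in the first pulse, and 15 fell and 0 rose in the second (edgeR adjusted p under 0.05). In the first pulse 21.5% of all genes were called lower and 22.3% higher. Their median log2 fold changes were -0.31 and -0.19, against 0.00019 and -0.00034 for all genes. HMGCS1, a synthase of the early mevalonate route, fell by 0.41 in the second pulse (SE 0.031, edgeR adjusted p = 2.22e-09). Of 15 non-member genes of fatty acid and lipid synthesis, 8 fell and 3 rose in the first pulse and 8 fell and 2 rose in the second. Of 8 non-member targets of the sterol-sensing LXR receptors, 2 fell and 1 rose in the first pulse, and 1 fell and 1 rose in the second.

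Ligands and cell surface receptors formed the widest role, with 22 members, all lower in the second pulse. TGFB2, a transforming growth factor ligand, stood at 109.6, 105 and 96.2 CPM in the vehicle libraries, 57.3, 61.3 and 60.8 in acute, 79.9, 77.7 and 69.8 in recovery and 44.5, 44.4 and 44.6 in repeat. ITGB8, an integrin subunit that activates latent transforming growth factor, stood at 6.9, 5.53 and 5.47 CPM in the vehicle libraries, 2.23, 2.38 and 2.47 in acute, 5.11, 3.74 and 4.54 in recovery and 2.19, 1.94 and 2.5 in repeat. In both, all recovery values were below all vehicle values, and repeat lay wholly below acute for TGFB2 but not for ITGB8. ERBB3, a neuregulin receptor, stood at 26.4, 23.3 and 20.7 CPM in the vehicle libraries, 11, 10.8 and 10.9 in acute, 18.4, 16.3 and 18.3 in recovery and 9.44, 8.3 and 9.97 in repeat. LGR5, a receptor for R-spondins that strengthens Wnt signalling, stood at 17.3, 16.6 and 16 CPM in the vehicle libraries, 8.8, 9.49 and 9.61 in acute, 16.4, 14.4 and 16.6 in recovery and 10.5, 9.57 and 10.6 in repeat. GAS1, a membrane co-receptor of hedgehog ligands, stood at 13.7, 11.9 and 12.6 CPM in the vehicle libraries, 5.79, 6.31 and 6.64 in acute, 10.8, 10.3 and 9.04 in recovery and 5.91, 5.94 and 6.42 in repeat. ERBB3 and GAS1 had no overlap between recovery and vehicle, whereas LGR5 overlapped and regained 88.4% of its fall. TGFB2 fell in the second pulse by 0.75 (SE 0.061, edgeR adjusted p = 1.88e-06). LGR5 fell by 0.62 (edgeR adjusted p = 2.71e-09), a call lost at -0.50 on log2(TPM + 1) (limma adjusted p = 0.284) and -0.73 with the length offset (edgeR adjusted p = 0.195).

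Other members of that role are part of several signalling systems. WNT2B, a Wnt ligand, had an acute mean of 0.452 of vehicle, and PDGFD, a platelet-derived growth factor, one of 0.526. GPC1, a heparan sulfate proteoglycan, stood at 72, 70.9 and 72 CPM in the vehicle libraries, 33.8, 32.7 and 34.1 in acute, 66.9, 69.7 and 63.3 in recovery and 36.8, 33.9 and 32.2 in repeat. HEG1, a membrane protein of endothelial and cardiac development, stood at 464, 439 and 441 CPM in the vehicle libraries, 251, 249 and 241 in acute, 406, 386 and 389 in recovery and 227, 212 and 220.4 in repeat. GPC1 and HEG1 regained 86.9% and 73.1% of their fall, each with recovery wholly below vehicle. The leptin receptor LEPR, the adenosine receptor ADORA2A, the serotonin receptor HTR1D and the immune checkpoint protein VSIR had acute means of 0.559, 0.457, 0.558 and 0.505 of vehicle.

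Extracellular matrix had 13 members, all lower in the second pulse. LUM, lumican, a small proteoglycan that binds collagen fibrils, stood at 31.2, 29.3 and 28 CPM in the vehicle libraries, 15.5, 15.1 and 14.4 in acute, 19.6, 17.2 and 19 in recovery and 12.8, 14.4 and 11.8 in repeat. DCN, decorin, its neighbour 28989 bases away on the same strand, stood at 44, 38.1 and 39.7 CPM in the vehicle libraries, 23.5, 22.6 and 23.6 in acute, 30.3, 31 and 30.4 in recovery and 22, 21 and 23.2 in repeat. For both, recovery lay wholly between vehicle and acute. LUM fell by 0.49 (SE 0.066, edgeR adjusted p = 2.40e-06) and DCN by 0.46 (SE 0.048, edgeR adjusted p = 9.48e-09) in the second pulse. Other members were the laminin chain LAMA3, the collagen COL8A2, the sulfatase SULF1, the matricellular CCN4, the kinase of secreted proteins FAM20C and the proteases ADAM33, ADAMTS15 and MMP24. Their acute means ran from 0.483 of vehicle in FAM20C to 0.596 in LAMA3. The median of the 13 was 0.762 of vehicle in recovery, the lowest of the 11 roles, and the median share of the fall regained was 48.9%. Of 39 non-member matrix genes in a list of matrix and matricellular proteins, 19 fell and 19 rose in the first pulse and 16 fell and 17 rose in the second. Some list genes that the first pulse did not lower were also below vehicle in recovery. POSTN had means of 65.7 CPM in vehicle, 63.3 in acute and 43.1 in recovery, and COL4A1 of 363, 462 and 294. Others were above vehicle in recovery, such as COL6A1 at 1118, 1410 and 1274 CPM. Whether the recovery level of the matrix members is an incomplete return or a separate difference from vehicle was not tested.

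Growth arrest, autophagy and cell death had 9 members, and all 9 fell in the second pulse. CCNG2, an unconventional cyclin associated with cell cycle arrest, stood at 23.5, 22.3 and 22.2 CPM in the vehicle libraries, 12.8, 11.7 and 12.5 in acute, 19.6, 19.2 and 20.9 in recovery and 12.3, 12.2 and 13.3 in repeat. KLHL24, a substrate adaptor of a ubiquitin ligase, stood at 7.87, 7.52 and 7.44 CPM in the vehicle libraries, 4.16, 4.13 and 4.1 in acute, 6.1, 6.37 and 8.01 in recovery and 3.93, 4.77 and 4.59 in repeat. CCNG2 had recovery below vehicle in every library, while KLHL24 overlapped. CDKN2B, an inhibitor of the cyclin-dependent kinases of early cell cycle entry, stood at 61.6, 59.5 and 52.8 CPM in the vehicle libraries, 24.8, 23.4 and 24 in acute, 46.1, 40.8 and 42 in recovery and 22.2, 21.9 and 20.5 in repeat. BNIP3L, a receptor for removal of mitochondria, stood at 185, 180.2 and 179.9 CPM in the vehicle libraries, 98.1, 101 and 100.02 in acute, 172, 172 and 178 in recovery and 102, 108 and 105 in repeat. ZMAT3, an RNA-binding target of p53, stood at 23.7, 23.9 and 24.1 CPM in the vehicle libraries, 12.7, 14.3 and 13.1 in acute, 25.5, 27.1 and 25.7 in recovery and 13.5, 13.6 and 14.2 in repeat. ZMAT3 was the 1 member with every recovery value above every vehicle value (10.8% of all genes), and CDKN2B regained 55.9% of its fall. The p53 target TP53INP1 and the BCL2 family gene BMF had acute means of 0.547 and 0.541 of vehicle. KLHL24 fell in the second pulse by 0.61 (edgeR adjusted p = 6.67e-06), a call lost at -0.33 on log2(TPM + 1) (limma adjusted p = 0.192) and -0.51 with the length offset (edgeR adjusted p = 0.161).

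Transcription and RNA-binding factors had 14 members, of which 13 fell in the second pulse. KLF9, which glucocorticoids raise in many cells, stood at 16.2, 14.8 and 15.1 CPM in the vehicle libraries, 6.75, 6.23 and 6.64 in acute, 11.5, 11.8 and 11.3 in recovery and 6.11, 5.96 and 6.38 in repeat. FOXO4, a forkhead factor, stood at 15.4, 14.6 and 13.4 CPM in the vehicle libraries, 8.69, 7.84 and 8.49 in acute, 13.3, 11.8 and 11.8 in recovery and 8.5, 7.18 and 8.22 in repeat. Recovery lay wholly between vehicle and acute in both. NFIB, a nuclear factor of organ development, stood at 49.9, 48.5 and 45.7 CPM in the vehicle libraries, 27.5, 29.4 and 27.9 in acute, 47, 44 and 43.7 in recovery and 25.5, 24.6 and 24.1 in repeat. DBP, an output factor of the circadian clock, stood at 3.12, 3.52 and 3.34 CPM in the vehicle libraries, 1.84, 1.93 and 1.89 in acute, 3.35, 2.89 and 2.85 in recovery and 1.66, 2.31 and 2.09 in repeat. In NFIB and DBP recovery overlapped vehicle. CEBPD, a factor of the acute phase response, stood at 27.9, 25.1 and 23.4 CPM in the vehicle libraries, 10.9, 11 and 9.46 in acute, 18.5, 16.4 and 17.6 in recovery and 8.74, 9.33 and 7.91 in repeat and regained 46.8% of its fall. NFIB fell in the second pulse by 0.84 (SE 0.041, edgeR adjusted p = 8.14e-16), and KLF9 by 0.90 (SE 0.064, edgeR adjusted p = 3.05e-12). DBP fell by 0.56 (edgeR adjusted p = 9.16e-04), a call lost at -0.27 on log2(TPM + 1) (limma adjusted p = 0.214) and -0.42 with the length offset (edgeR adjusted p = 0.242). Of 13 non-member glucocorticoid and FOXO targets, 7 fell and 3 rose in the first pulse and 6 fell and 2 rose in the second.

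Kinases, phosphodiesterases and small GTPase regulators had 14 members, all lower in the second pulse. PRKCA, a protein kinase C, stood at 253, 254 and 245 CPM in the vehicle libraries, 125, 123 and 116 in acute, 242, 239 and 242 in recovery and 114, 114 and 110.3 in repeat. It fell by 1.08 (SE 0.025, edgeR adjusted p = 9.52e-24). DAPK1, a death-associated kinase, stood at 72.2, 64.5 and 61.9 CPM in the vehicle libraries, 32.6, 30.7 and 31.7 in acute, 50.9, 47.5 and 49.2 in recovery and 26.1, 24.6 and 28.9 in repeat. Repeat lay wholly below acute in both, but recovery reached 0.961 of vehicle in PRKCA and 0.743 in DAPK1. PDE5A, a phosphodiesterase of cyclic GMP, stood at 10.6, 9.48 and 9.62 CPM in the vehicle libraries, 5.56, 6.03 and 5.93 in acute, 9.39, 8.89 and 8.86 in recovery and 6.36, 5.8 and 5.58 in repeat. PIM1, a survival kinase, stood at 61, 56.7 and 58.5 CPM in the vehicle libraries, 32.7, 30.5 and 31.7 in acute, 47.3, 43.8 and 47.6 in recovery and 30.5, 29.5 and 31.5 in repeat. Of these 4, PDE5A is the gene whose second-pulse change turned in direction on the TPM scale (0.03 on log2(TPM + 1)). The median of the 14 was 0.912 of vehicle in recovery, with 78.6% of the fall regained.

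Metabolic genes outside lipids had 14 members, all lower in the second pulse. NNMT, which methylates nicotinamide, stood at 49.8, 45.2 and 42.6 CPM in the vehicle libraries, 18.5, 18.1 and 19.3 in acute, 33, 32 and 30.5 in recovery and 15.7, 16.9 and 15 in repeat. CYP1B1, a cytochrome of oestrogen and xenobiotic metabolism, stood at 37.8, 40.7 and 39 CPM in the vehicle libraries, 18.2, 19.9 and 18.8 in acute, 30.4, 32.3 and 31.1 in recovery and 17.7, 16.4 and 16 in repeat. Both had recovery wholly below vehicle and repeat wholly below acute. NUDT3, a phosphohydrolase, stood at 120.1, 117 and 117 CPM in the vehicle libraries, 61.3, 63.5 and 60.9 in acute, 117, 112 and 117 in recovery and 58.9, 57.9 and 55.7 in repeat, and its recovery values overlapped vehicle. NUDT3 shares exons with the readthrough gene RPS10-NUDT3. MMAB, a cobalamin enzyme, overlaps MVK at its start on the opposite strand and had an acute mean of 0.564 of vehicle against 0.572 for MVK.

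Transporters, channels and sorting receptors had 9 members, all lower in the second pulse. SORL1, a sorting receptor of the endosome, stood at 8.26, 7.26 and 8.09 CPM in the vehicle libraries, 4.27, 4.01 and 3.14 in acute, 7.77, 7.45 and 9.21 in recovery and 4.35, 3.95 and 4.53 in repeat. SORT1, sortilin, stood at 130.1, 128 and 118 CPM in the vehicle libraries, 76.7, 75 and 73.4 in acute, 108, 95.4 and 102 in recovery and 64, 63.8 and 65.8 in repeat. SLC7A11, the cystine importer, stood at 42, 41.8 and 39.7 CPM in the vehicle libraries, 23.6, 26.8 and 22.9 in acute, 43.7, 40.4 and 40.6 in recovery and 26.4, 24.9 and 24.8 in repeat. Recovery overlapped vehicle for SORL1 and SLC7A11 and lay below it for SORT1. SORL1 fell by 0.92 (edgeR adjusted p = 2.15e-08), and the second-pulse change was -0.33 on log2(TPM + 1) (limma adjusted p = 0.0752) and -0.90 with the length offset (edgeR adjusted p = 0.0389), so that the call was lost in TPM and kept with the offset.

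Cytoskeleton and junction genes had 17 members, all lower in the second pulse. TENM2, a teneurin of cell contacts, stood at 27.8, 28.3 and 26 CPM in the vehicle libraries, 14.8, 14.9 and 14.5 in acute, 17.2, 16.7 and 16.1 in recovery and 10.1, 9.39 and 10.5 in repeat. TUBA1A, an alpha tubulin, stood at 343, 314 and 319 CPM in the vehicle libraries, 180.0, 175 and 186 in acute, 306, 302 and 297 in recovery and 179, 186 and 172 in repeat. PKP2, a desmosome protein of heart muscle, stood at 11.9, 10.3 and 9.81 CPM in the vehicle libraries, 6.48, 6.56 and 5.97 in acute, 8.85, 8.34 and 7.72 in recovery and 4.99, 5.82 and 5.68 in repeat. TENM2 and PKP2 were lower in repeat than in acute in every library, and TUBA1A overlapped. Tubulin genes are near-identical in part, so the value of TUBA1A may include reads of other tubulins. PKP2 fell by 0.58 (edgeR adjusted p = 2.07e-06), a call lost at -0.22 on log2(TPM + 1) (limma adjusted p = 0.209) and -0.37 with the length offset (edgeR adjusted p = 0.129).

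Noncoding RNAs, pseudogenes and retrocopies had 17 members, of which 13 fell in the second pulse. BCYRN1, a short RNA known from neuronal dendrites, stood at 339, 355 and 313 CPM in the vehicle libraries, 154, 183 and 158 in acute, 346, 365 and 295 in recovery and 145, 167 and 133 in repeat. Its gene spans chr2:47335315-47335514, and its vehicle mean of 22898 TPM was the highest of the members. TPM divides counts by transcript length, and this gene is short. In CPM its vehicle values were below the FASN vehicle mean of 1037. LINC01963, a long noncoding RNA, stood at 6.19, 6.56 and 6.22 CPM in the vehicle libraries, 3.05, 2.68 and 3.07 in acute, 6.46, 6.65 and 7.23 in recovery and 2.98, 2.79 and 2.79 in repeat. BCYRN1 and LINC01963 both returned to vehicle, at 0.999 and 1.07 of its mean. BCYRN1 resembles Alu repeats, so reads of other copies may be counted with it. The remaining 11 members had other or uncertain roles, and all except LXN fell. FAM172A among them stood at 24.2, 25.4 and 26.1 CPM in the vehicle libraries, 12.5, 11 and 10.9 in acute, 23.6, 25.2 and 26.1 in recovery and 11.7, 11.2 and 10.2 in repeat, with recovery overlapping vehicle.

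The return after the pulse differed between members. The median member stood at 0.862 of vehicle in recovery (lowest 0.504, highest 1.09) and regained 72.4% of its fall (quartiles 56.6% and 83.8%). All tested genes had a median recovery to vehicle ratio of 0.996. Every recovery value was below every vehicle value in 88 members (12.8% of all genes), and the groups overlapped in 67. The vehicle libraries were used in the choice of members, so these counts are descriptions. Without vehicle replicate 1 the median was 0.887. In 152 members every recovery value was above every acute value (28% of all genes), the exceptions being TGFB2-OT1, MGARP, TUBB2B and BORCS8-MEF2B.

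Recovery was under 0.75 of vehicle in 23 members and at or above 0.95 in 27, with 106 between. The lowest were BORCS8-MEF2B at 0.504, TENM2 at 0.609, TGFB2-OT1 at 0.615, LUM at 0.631 and ECEL1P2 at 0.671, whose library values are given above. The 23 also held CEBPD, NNMT, CDKN2B, SREBF1, FADS2, FASN, COL4A4, ITGB8, TGFB2 and GFRA1. The highest were ZMAT3 at 1.09, PITPNC1 at 1.07, LINC01963 at 1.07, SORL1 at 1.03 and FAM81A at 1.02. PITPNC1, a phosphatidylinositol transfer protein, stood at 3.56, 3.24 and 3.45 CPM in the vehicle libraries, 1.93, 1.75 and 1.82 in acute, 3.94, 3.0 and 4.07 in recovery and 1.87, 2.18 and 1.78 in repeat. FAM81A, of little-known function, stood at 5.52, 5.87 and 5.28 CPM in the vehicle libraries, 3.24, 2.85 and 2.63 in acute, 5.54, 5.48 and 5.97 in recovery and 3.44, 3.13 and 3.28 in repeat. In both, recovery overlapped vehicle and repeat overlapped acute. By role the medians ran from 0.762 in extracellular matrix and 0.805 in ligands and receptors to 0.912 in kinases and 0.923 in genes of other or uncertain role.

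**Figure D4:**
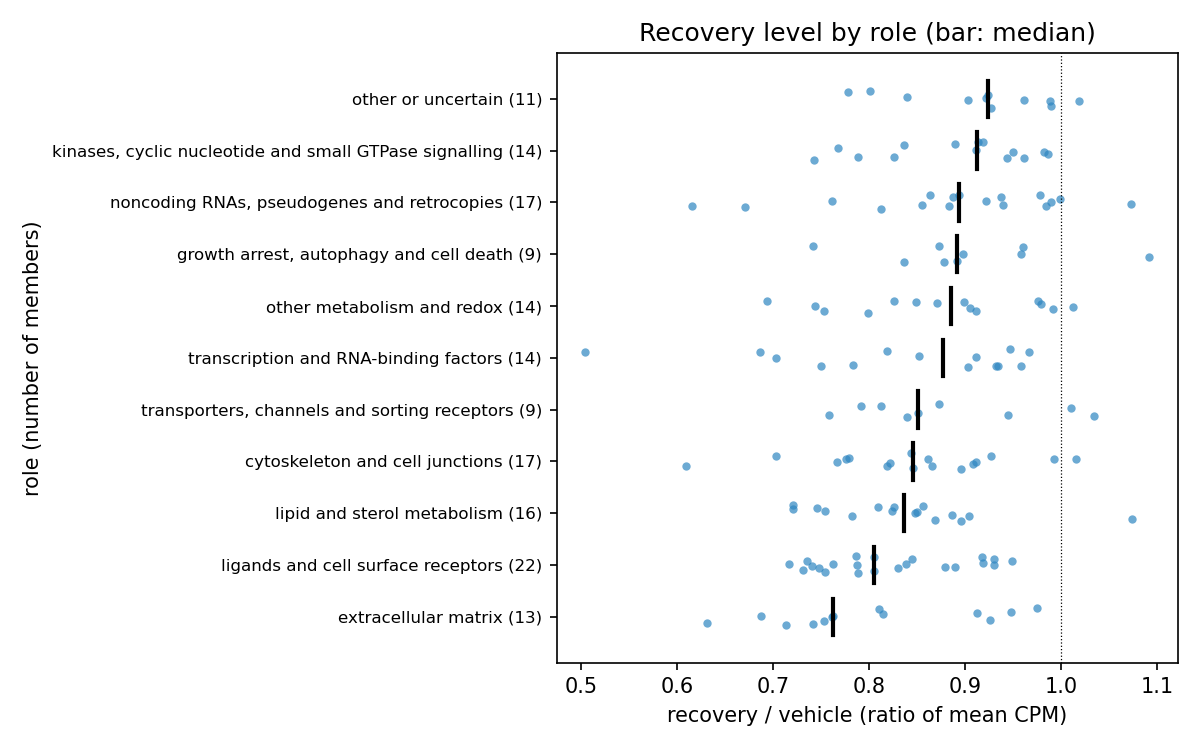
Each point is a member, placed by its recovery mean over its vehicle mean (horizontal axis, ratio of CPM) within its role (rows, number of members in brackets), with a black bar at the median. Medians run from 0.762 in extracellular matrix to 0.923 in other or uncertain roles, and the roles overlap widely.

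The level after the second pulse was close to that after the first, and slightly lower in the median member. The median repeat to acute ratio was 0.949 (lowest 0.461, highest 1.42), against 1.003 for all tested genes, and 109 of the 156 members were under 1. Every repeat value was below every acute value in 43 members (9.61% of all genes), and above in 4, namely S100A4, BNIP3L, MMAB and LXN (10.8% of all genes). Relative to vehicle the median member stood at 0.506 in repeat. These ratios set libraries of different labelled days against each other.

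Counts and TPM differ by the transcript length assigned to a gene in each library, and the ratio of the 2 gives that length relative to the library's median. Its log2 change had a median of 0.0010 over the members in both pulses, with quartiles of -0.078 and 0.041 in the first pulse and -0.071 and 0.037 in the second. Over 13953 genes averaging 50 counts or more per library, the quartiles were -0.046 and 0.034, then -0.042 and 0.034. Of the members, 137 in the first pulse and 142 in the second lay within the central 95% of those genes, 13 and 9 lay below it, and 6 and 5 above it. MTURN and GFRA1 were the 2 members shorter by at least 0.3 in both pulses without overlap, among 34 such genes in all, and 0 members were longer. GFRA1 is a co-receptor for glial cell line-derived neurotrophic factor, and stood at 81.3, 78.1 and 70.1 CPM in the vehicle libraries, 36.8, 36.4 and 35.2 in acute, 59.4, 55.3 and 54.1 in recovery and 28.6, 29.1 and 27.7 in repeat. Its log2 implied length was 2.12, 2.06 and 2.15 in vehicle, 1.30, 1.40 and 1.28 in acute, 1.99, 2.13 and 2.15 in recovery and 1.46, 1.26 and 1.42 in repeat. In MTURN it was 1.37, 1.28 and 1.19, 1.05, 0.77 and 0.76, 1.48, 1.47 and 1.37 and 0.83, 1.09 and 0.99 in the same order of groups. The acute minus vehicle change was -0.78 in GFRA1 and -0.42 in MTURN, outside that central 95% (-0.32 to 0.29). In TPM the acute mean of GFRA1 was therefore 0.839 of vehicle and that of MTURN 0.408. GFRA1 fell in the second pulse by 0.97 (edgeR adjusted p = 8.03e-11), a call lost at -0.22 on log2(TPM + 1) (limma adjusted p = 0.108) and -0.26 with the length offset (edgeR adjusted p = 0.0631). MTURN kept its call, but with smaller changes than on counts. They were -0.74 on log2(TPM + 1) (limma adjusted p = 3.82e-05) and -1.10 with the length offset (edgeR adjusted p = 4.77e-06).

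**Figure D5:**
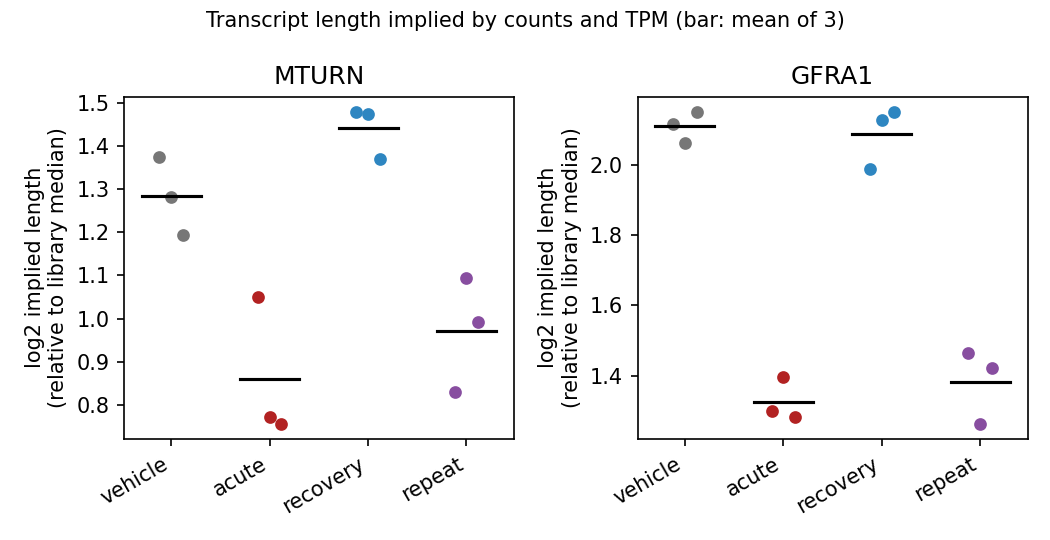
Log2 transcript length implied by counts and TPM, relative to the library median (vertical axis), in each library (points) with the group mean (bars), for MTURN and GFRA1 by group. In both genes all acute and repeat points lie below all vehicle and recovery points.

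Over all members the TPM ratio of acute to vehicle had a median of 0.562 and ran from 0.335 to 1.36, and 109 of the 156 were at or below 0.6 on that scale. In TPM 2 members were above 1: PDK3, a kinase that holds back pyruvate dehydrogenase, at 1.36, and PRRT2, a synaptic membrane protein, at 1.13. In CPM the same 2 genes stood at 0.5 and 0.526 of vehicle.

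The members were spread over 22 chromosomes. By biotype 140 were protein-coding, 9 were long noncoding RNAs, 4 were transcribed unprocessed pseudogenes, 2 were processed pseudogenes and BCYRN1 was a small cytoplasmic RNA. The median exonic length of the protein-coding members was 5792 bases, against 5303 bases for tested protein-coding genes. The members that were neighbours or overlapped were FADS2 with FADS1, MMAB with MVK, TGFB2 with TGFB2-OT1, LUM with DCN, and HEG1 with SLC12A8, 26638 bases apart. Exons of 82 members overlapped exons of another gene, on the same strand in 35 and on the opposite strand in 58. FADS1 and FADS2 overlap on opposite strands, so reads of their overlap can be told apart only as far as the counting used strand, which is not given in the sources used here. FADS2 shares exons with FEN1 on the same strand, where strand cannot separate the reads.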

How the data were processed

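Poly(A)-selected, stranded, single-end RNA-seq was made from 12 AC16 cultures. Per the labels' design text the authors aligned reads with STAR and counted them per gene with featureCounts against GENCODE release 41. Versions are from the submitters' processing notes (STAR 2.7.11a, featureCounts 2.0.3, build GRCh38.p13), which also list cutadapt 4.3, Trim Galore 0.6.10, Picard 2.27.5 and edgeR. The authors deposited estimated counts per gene, unscaled, with 25.5% of nonzero values not whole, and a table of TPM. How fractions arose is not given in the sources used here.

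CPM is a count over its library total, times 1000000. Counts were rounded to whole numbers and fitted with edgeR 4.0.16 in R 4.3.3 (filterByExpr by group, TMM, robust quasi-likelihood, 1 mean per group, all 12 libraries), tested on simulated data first. The common biological coefficient of variation was 2.67%. Adjusted p-values are Benjamini-Hochberg over 18119 genes, two-sided, and p-values measure the spread between these libraries. Replicates of every group differed by more than sampling noise (median squared difference 1.78 to 2.99 times the Poisson value), so no library was a copy of another. That measure cannot tell separate cultures from separate libraries of the same culture. Log2 fold changes of members come from this fit, and ratios from mean CPM. Alternatives used DESeq2 1.42.0, limma 3.58.1 (voom, or trend on log2(TPM + 1)), other scalings, filters and limits, a length offset, and each library left out.

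Symbols came from a name table that matched 60507 of 60649 identifiers and gave 42028 a symbol. The members, the gene lists and the tests were chosen with earlier results of these data known. Library values are given for MTURN, the 10 lowest acute to vehicle ratios, the 5 lowest and 5 highest recovery to vehicle ratios, the 5 most negative and 5 highest second-pulse fold changes, and members in the gene lists. Further members were named after their values were seen. Values of the 9 genes set aside by name, and of a few other genes that the rule for library values covers, are not reported here.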

Additional observations from a re-analysis of the deposited data

How the results depend on the processing

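The number of members lower in repeat than in recovery was 149 to 152 under every count-based alternative (DESeq2, limma-voom, upper quartile and RLE scaling, both filters, recovery and repeat libraries only, and each library left out), 117 on log2(TPM + 1) and log2(TPM + 0.1), and 121 with the length offset, which could fit 155 members. No member was higher under any of them. The same 117 members were lower in all 23 alternatives. With the replicate number as a block it was 151. The numbers did not pair the libraries, since recovery and repeat residuals of the same number correlated at -0.0059, -0.082 and 0.030, and the block added a call for SMG1P5. Number 3 correlated best with itself, and numbers 1 and 2 did not. The number of members itself was 50 at a ratio of at most 0.5, 415 at 0.7, 241 at a vehicle mean of 1 CPM and 84 at 10 CPM, 141 with TMM-scaled CPM, 115 in TPM (67 of them shared), and 138 to 171 with a vehicle or acute library left out. The median repeat to recovery ratio, 0.578, became 0.584 (TMM), 0.574 (upper quartile) and 0.593 (TPM), with 0.574 to 0.584 over left-out libraries. The median recovery to vehicle ratio ran from 0.847 to 0.887. Other genes of the lists called lower in the second pulse numbered 189, against 108 on log2(TPM + 1) and 110 on log2(TPM + 0.1), and in the first pulse 201, against 109 and 109 on those scales and 128 with the length offset. The change turned positive for BMF (0.060, 0.14 and 0.15), MTUS1 (0.12, 0.21 and 0.22) and PDE5A (0.031, 0.048 and 0.034) on log2(TPM + 1), log2(TPM + 0.1) and the length offset. For BORCS8-MEF2B it turned negative on the TPM scales (-0.015 and -0.037) and without repeat replicate 2, and over left-out libraries it ran from -0.24 to 0.65. For these TPM and offset differences the cause was not tested. Over single members and all alternatives, 3471 values kept their direction and side of the threshold, 92 lost their call, 12 gained one and 12 reversed. IQCH-AS1 lost its call by DESeq2 and without recovery replicate 1, recovery replicate 3, repeat replicate 1 or repeat replicate 2, and VASH2 without repeat replicate 1. NCAL1 was called lower by DESeq2 and limma-voom. Members near 3 CPM rest on few counts, which limits ratios for the lowest ones.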

Other observations

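The lists that hold few or no members are given here as counts of other genes called lower and higher (edgeR adjusted p under 0.05), first in the first pulse and then in the second. Over all tested genes, 21.5% were called lower and 22.3% higher in the first pulse, and 20.5% and 21.1% in the second. Counts near these shares do not set a list apart from other genes. In the G2/M and mitosis list, with 28 genes and 0 members, 26 were lower and 0 higher in each pulse, with median log2 fold changes of -0.26 and -0.25. In G1/S and DNA replication, 14 were lower and 5 higher of 27, then 11 and 6. Wnt signalling had 7 lower and 8 higher of 26, then 9 and 7. Transforming growth factor and BMP signalling had 5 lower and 15 higher of 28, then 5 and 12. Notch and hedgehog signalling had 3 lower and 8 higher of 22, then 5 and 6. Growth factor receptors had 12 lower and 7 higher of 32, then 11 and 6. MAPK feedback and immediate early genes had 3 lower and 17 higher of 26, then 4 and 16. Adhesion and axon guidance had 14 lower and 9 higher of 34, then 15 and 9. Muscle structure had 7 lower and 9 higher of 25, then 5 and 9. Developmental transcription factors had 22 lower and 23 higher of 62, then 18 and 18. Ion channels and pumps had 16 lower and 8 higher of 38, then 15 and 6. The circadian clock had 7 lower and 1 higher of 16, then 6 and 3. Regulators of mTOR had 5 lower and 6 higher of 19, then 7 and 5. Retinoid handling had 4 lower and 0 higher of 11 in each pulse. Iron handling had 3 lower and 2 higher of 11, then 2 and 4, and TRAIL receptors had 1 lower and 3 higher of 5 in each pulse.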
